A study of Mus musculus with 6 samples.

Results

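Smooth muscle contractile genes were examined in the mouse incisor, as 10 of the 23718 genes listed in the deposited table: Acta2, Myh11, Tagln, Cnn1, Mylk, Lmod1, Smtn, Des, Actg2 and Myocd. They were taken by gene symbol, and all 10 were listed. The list was selected on the difference between the groups compared here, seen in an earlier look at the same 6 libraries, so that difference is described below for these genes and is not tested. RNA was sequenced from tissue cut out of incisor sections with laser capture microdissection, a method that cuts chosen areas free with a laser beam. The question of the study was how mesenchymal stem cells (MSCs) and their dividing progeny, the transit amplifying cells (TACs), differ and signal to each other. The MSC samples came from Gli1-CreER;tdT mice and the TAC samples from Axin2-CreER;tdT mice, 1 month old and taken 1 day after tamoxifen. The labels give the strain as C57BL/6, whereas the study's methods speak of a mixed background and write the lines as Gli1-CreERT2 and Axin2-CreERT2 with the reporter Rosa26<fs-tdTomato>. Each group had 3 samples, numbered 1 to 3, from 3 mice per group. In both lines tamoxifen turns on a red fluorescent reporter in cells in which the named driver is active, and the sections were cut where that reporter was seen. All 6 samples carry CreER, the reporter and the tamoxifen exposure, the groups differ in the driver as well as in the region cut, and a cut area of a section holds every cell within it, vessels included.

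Smooth muscle cells shorten when myosin filaments pull on actin filaments, and phosphorylation of the myosin regulatory light chain by myosin light chain kinase starts each contraction. Vascular smooth muscle cells and the related pericytes wrap the vessels that enter the dental pulp, and some of these genes, Acta2 above all, are also used by myofibroblasts and some mesenchymal progenitors. Many contractile genes are turned on by serum response factor (SRF) with its coactivator myocardin, the product of Myocd, through a DNA element called the CArG box, and TEAD factors act through a second element, the MCAT motif.

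Since contractile genes are known to share promoter elements, the promoters were looked up. The 250 bases before the gene start were found in RefSeq (GRCm38.p6) for 6 of the 10 genes, namely Acta2, Mylk, Lmod1, Smtn, Cnn1 and Des. No window held a full CArG box, which 1.47% of all 32851 promoter windows of the same length did. A CArG box with 1 mismatch, a pattern that reads the same on both strands, was present in 2 of the 6 windows, those of Acta2 and Lmod1, and in 18.6% of all windows. The MCAT motif, searched as CATTCC and its reverse complement GGAATG, was present in 4 of the 6, in Acta2, Lmod1, Mylk and Smtn, and in 12.6% of all windows. The letters TATAAA were in none of the 6 windows and in 7.59% of all. These motifs were chosen with the sequences in view and a match is a description of letters only. The 4 windows with a match are printed because they show where the letters lie in the promoters of an actin, a filament nucleator, the kinase and a thin filament protein. Capitals mark CArG boxes with 1 mismatch (10 letters) and MCAT motifs (6 letters), and each window runs 5′ to 3′ on the gene's own strand. The Mylk and Smtn windows lie inside the annotated spans of these genes, before an inner start. By the GENCODE M21 annotation, in which Acta2 runs to 34255590, most of the Acta2 window and all its marked letters also lie inside the gene. The last bases of the Lmod1 window run past the annotated start at 135324807. The windows are chr19:34255374-34255623 (minus strand) for Acta2, chr1:135324563-135324812 (plus) for Lmod1, chr16:34784700-34784949 (plus) for Mylk and chr11:3539293-3539542 (minus) for Smtn.
Acta2: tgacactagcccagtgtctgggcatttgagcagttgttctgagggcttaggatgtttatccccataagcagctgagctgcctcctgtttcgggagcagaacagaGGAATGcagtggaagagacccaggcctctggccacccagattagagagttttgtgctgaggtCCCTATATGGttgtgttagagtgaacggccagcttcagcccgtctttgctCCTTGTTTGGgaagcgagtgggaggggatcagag
Lmod1: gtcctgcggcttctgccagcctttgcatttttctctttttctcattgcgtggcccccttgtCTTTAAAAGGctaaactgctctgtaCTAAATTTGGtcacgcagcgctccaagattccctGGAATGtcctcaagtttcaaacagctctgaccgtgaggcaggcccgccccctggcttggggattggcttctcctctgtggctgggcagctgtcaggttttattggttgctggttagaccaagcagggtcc
Mylk: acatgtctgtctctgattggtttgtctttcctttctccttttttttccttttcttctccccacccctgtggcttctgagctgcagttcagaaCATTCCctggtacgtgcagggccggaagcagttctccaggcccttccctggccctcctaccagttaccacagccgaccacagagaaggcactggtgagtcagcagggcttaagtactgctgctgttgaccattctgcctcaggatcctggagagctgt
Smtn: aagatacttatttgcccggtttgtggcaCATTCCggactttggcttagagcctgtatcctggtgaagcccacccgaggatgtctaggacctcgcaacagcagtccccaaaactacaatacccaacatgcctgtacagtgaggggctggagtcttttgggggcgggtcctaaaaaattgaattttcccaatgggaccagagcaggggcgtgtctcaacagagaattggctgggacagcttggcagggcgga
Distances are counted from the RefSeq start at the end of each window. For Acta2 this is neither the deposited start (34255336) nor that of GENCODE M21 (34255590). In Acta2 the MCAT motif began 146 bases before the RefSeq start and the CArG boxes with 1 mismatch began 84 and 34 bases before it. In Lmod1 the MCAT motif began 130 bases before the start and the CArG boxes with 1 mismatch 189 and 164 bases before it. In Mylk and Smtn the MCAT motif began 158 and 222 bases before the start.

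The libraries held between 20203159 and 108156380 reads as estimated from the values, and replicate 3 of each group stood apart. On the log2 scale MSC1 and MSC2 correlated at 0.98 over the 15391 tested genes, whereas MSC3 correlated at 0.66 with MSC1. The share of genes without a read was 6.89% to 8.36% in replicates 1 and 2 of both groups, 43.1% in MSC3 and 28.3% in TAC3. Genes that most growing cells use were among them: Tfrc, Lig1 and Supt16 were listed at 0 in MSC3 despite its depth. Of the 3140 genes with a mean value of 2 to 5 in MSC1 and MSC2, 47.9% had no read in MSC3, and of the 2751 such genes in TAC1 and TAC2, 19.3% had none in TAC3. A 0 in a replicate 3 library is therefore given below only as listed at 0. The driver gene Gli1 was at 256, 245 and 422 in MSC and at 153, 141 and 396 in TAC, higher in MSC in each same-numbered pair although TAC3 was above MSC1 and MSC2, and Axin2 was at 58.3, 48.0 and 12 in MSC and at 56.8, 63.9 and 34.1 in TAC.

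Values are the deposited normalised values, scaled so that all libraries share the third quartile, and are given for samples 1, 2 and 3 in that order. Differences are TAC minus MSC on the log2(value + 1) scale with the standard error (SE) of the fit over 3 against 3 samples. Of the 10 genes, 9 were higher in MSC by this difference, with a median over all 10 of -2.69, where the median over all 23718 listed genes was -0.01. The MSC and TAC values did not overlap for 6 of the 10, Acta2, Myh11, Tagln, Cnn1, Mylk and Lmod1, each higher in MSC, where 12.2% of all tested genes were higher in MSC without overlap and 12.3% higher in TAC. Smtn, Des, Actg2 and Myocd overlapped. A mean value of at least 1 over the 6 samples was needed for a fit. Des did not reach it, and Cnn1, Lmod1, Actg2 and Myocd reached it through their MSC values alone. Among the 9 fitted genes 4 had a Benjamini-Hochberg adjusted p under 0.05 (limma), where 0.383% of all tested genes did with a higher MSC level and 0.0390% with a higher TAC level. Nothing is read from that count, since the genes were chosen by this contrast.

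**Figure D1:**
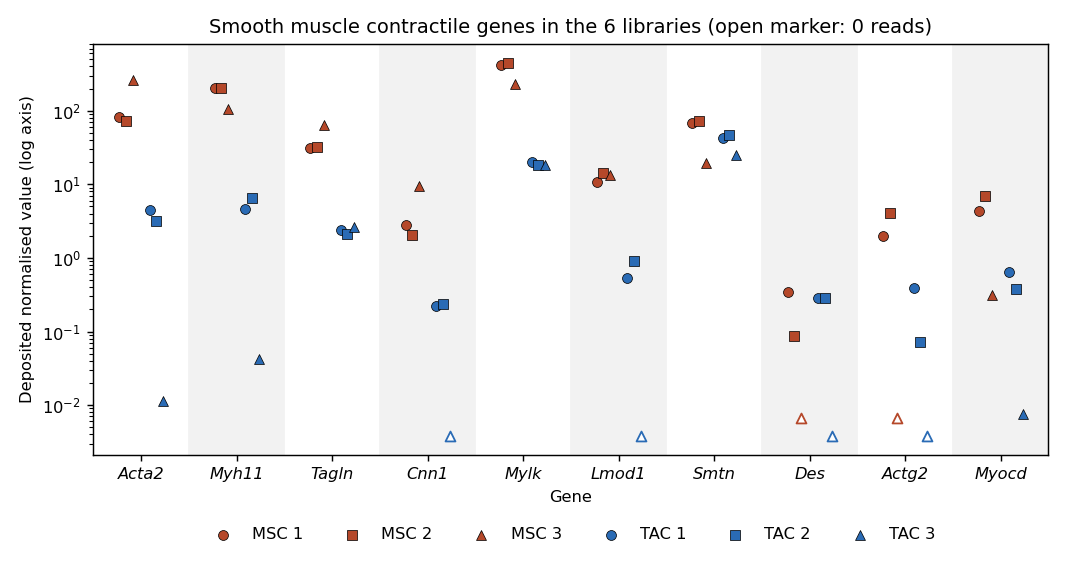
Deposited normalised value (log axis) of the 10 smooth muscle contractile genes in the 6 libraries, 1 marker per library, with open markers for 0 estimated reads. The MSC markers of Acta2, Myh11, Tagln, Cnn1, Mylk and Lmod1 sit above all their TAC markers, those of Smtn, Des, Actg2 and Myocd overlap, and TAC3 is far below TAC1 and TAC2 for Acta2 (0.0114) and Myh11 (0.0417).

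Acta2 encodes smooth muscle α-actin, the main actin of vascular smooth muscle, and lies on the minus strand at chr19:34241090-34255336 (mm10). Its values were 81.5, 73.5 and 266 in MSC and 4.53, 3.19 and 0.0114 in TAC, the last resting on 2 estimated reads. Every MSC sample was above every TAC sample, but MSC3 was the highest and TAC3 the lowest of the 6. The means were 140.2 ± 109 in MSC and 2.58 ± 2.32 in TAC (SD, n = 3 each), a log2 difference of -5.36 (SE 0.77). In replicates 1 and 2 alone the MSC mean was 20.1 times the TAC mean. Actg2, the γ-actin of gut and other visceral smooth muscle (chr6:83512905-83536265, minus strand), was at 2.0 and 4.06 in MSC1 and MSC2 and listed at 0 in MSC3, and at 0.394 and 0.0719 in TAC1 and TAC2 and listed at 0 in TAC3. It was low throughout, and the groups overlapped only through MSC3. Its log2 difference was -1.12 (SE 0.68) over all samples and -1.67 in replicates 1 and 2.

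The place of these actins among all actins was compared per exon base, since the deposited values are not divided by gene length. Acta2 made up 13.8%, 12.4% and 26.6% of the reads per exon base of the 5 listed actins in MSC, and 0.537%, 0.374% and 0.000872% in TAC. Actb and Actg1, the cytoplasmic actins of all cells, made up most of the rest, with Actb at 48.1% to 56.4% in MSC and 63.8% to 67.8% in TAC. On the deposited scale Actb had a log2 difference of 0.58 (SE 0.38, limma adjusted p = 0.613) and Actg1 of 0.52 (SE 0.31, adjusted p = 0.578), neither past the threshold. The share of Acta2 was lower in every TAC library than in any MSC library. No 75-base window, the length of a read, of an Acta2 or Actg2 transcript was shared with another gene of GENCODE M21.

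Myh11 encodes the smooth muscle myosin heavy chain, the motor of the thick filament and a defining marker of differentiated smooth muscle (chr16:14194527-14291408, minus strand). Its values were 204, 205 and 106 in MSC and 4.55, 6.52 and 0.0417 in TAC, the last from 10 estimated reads. All MSC samples were above all TAC samples, with TAC3 again the lowest. The means were 172 ± 56.7 and 3.71 ± 3.32 (SD, n = 3 each), a log2 difference of -5.56 (SE 0.75), the lowest of the 15391 tested genes on this scale, though not with quantile normalization, where Igfbp3 was lower (-5.53 against -5.35), or voom, where Acta2 was (-10.14 against -9.72). Per exon base Myh11 made up 24.5%, 24.8% and 53.2% of the 4 listed class II myosin heavy chains in MSC and 0.826%, 1.16% and 0.0374% in TAC. Myh9, the nonmuscle heavy chain IIA, made up 60.8% to 62.3% in TAC, and its own log2 difference was -0.04 (SE 0.99, limma adjusted p = 0.995).

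Mylk encodes myosin light chain kinase, which phosphorylates the myosin regulatory light chain (chr16:34745210-35002420, plus strand). Its values were 423, 450 and 230 in MSC and 20.1, 18.1 and 18.0 in TAC. The TAC samples lay close together, replicate 3 included. The means were 368 and 18.7 ± 1.18 (SD, n = 3) in MSC and TAC, a log2 difference of -4.17 (SE 0.33), the smallest SE among the 9 fitted genes. Per exon base Mylk and Acta2 were the most abundant of the 10 genes in MSC1 and MSC2, at 27.1% and 28.3% of their sum for Mylk and 26.8% and 23.7% for Acta2, whereas Acta2 alone made up 60.9% in MSC3. Mylk and its antisense partners E130310I04Rik and Gm21691 share 3.55% of the 75-base windows of Mylk transcripts, and these partners were not analysed here. Another antisense gene within Mylk, 1700119H24Rik, shares no exon base with it.

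Tagln encodes transgelin, an actin-binding protein of smooth muscle also called SM22α (chr9:45929619-45936058, minus strand). Its values were 31.1, 32 and 63.4 in MSC and 2.37, 2.13 and 2.60 in TAC, where TAC3 held 684 estimated reads. The groups were apart and the TAC samples were within 1.22 times of each other, unlike those of Acta2 and Myh11. The log2 difference was -3.60 (SE 0.42). Per exon base Tagln made up 49.6%, 49.4% and 31.5% of the 3 transgelins in MSC and 6.90%, 6.18% and 2.84% in TAC, while Tagln2, the form of many other cells, was at 84.5% or 84.6% in each TAC sample. More than any other of the genes, Tagln overlaps neighbours: 53.3% of its 75-base windows also occur in the antisense gene Gm48529 or in Pcsk7 on the other strand. Whether the libraries kept strand is not given in the sources used here, so reads from the shared stretches of Tagln and Gm48529 cannot be told apart. Pcsk7, a protein-cleaving enzyme, was at 13.4, 16.3 and 4.68 in MSC and 15.6, 16.7 and 20.1 in TAC. It holds only 34 of the 1057 shared windows, against 1023 in Gm48529, which has no deposited value. The part of the overlap in the Tagln values was not tested.

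**Figure D2:**
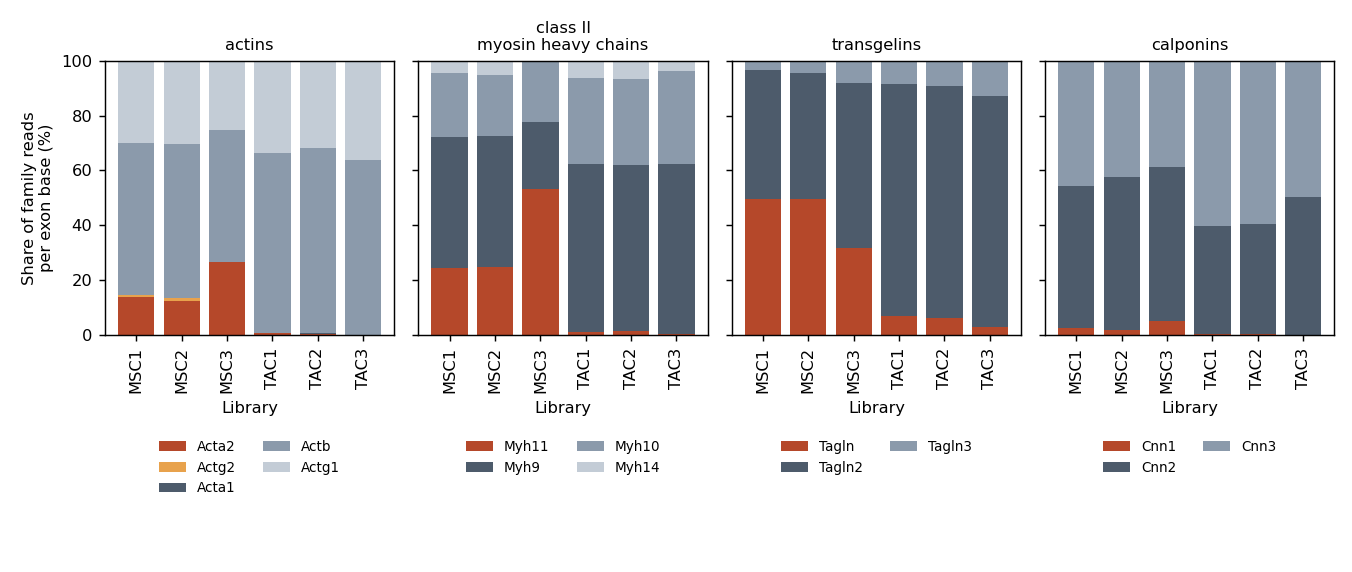
Share (%) of the reads per exon base of each gene family taken by each listed gene, 1 bar per library, for actins, class II myosin heavy chains, transgelins and calponins, with the smooth muscle genes in red and orange. Acta2 takes 12.4% to 26.6% of the actins in MSC and at most 0.537% in TAC, Myh11 24.5% to 53.2% against at most 1.16%, and Tagln 31.5% to 49.6% against 2.84% to 6.90%.

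Cnn1 encodes calponin 1, which binds actin and slows the myosin motor (chr9:22099216-22109630, plus strand). It was at 2.77, 2.03 and 9.56 in MSC and at 0.219 and 0.240 in TAC1 and TAC2, from 9 estimated reads in each, and was listed at 0 in TAC3. The groups did not overlap, and the MSC to TAC ratio in replicates 1 and 2 was 10.5 on very few TAC reads. Its log2 difference of -2.10 (SE 0.62) understates the change of a gene this low, because 1 is added to each value. Within the calponins it was a minor form, at 1.61% to 4.84% of their reads per exon base in MSC and at most 0.119% in TAC, the rest being Cnn2 and Cnn3. Cnn3 was higher in all TAC samples, with a log2 difference of 0.88 (SE 0.27) that did not pass the threshold (limma adjusted p = 0.254).

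Lmod1 encodes leiomodin 1, which starts new actin filaments in smooth muscle (chr1:135324807-135368065, plus strand). It was at 10.9, 14.5 and 13.5 in MSC and at 0.525 and 0.911 in TAC1 and TAC2, and was listed at 0 in TAC3. The 3 MSC samples were within 1.33 times of each other, the tightest MSC spread of the 10 genes, and lay far above TAC. The log2 difference was -3.28 (SE 0.51), and the MSC to TAC ratio in replicates 1 and 2 was 17.6.

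Smtn encodes smoothelin, a protein bound to actin stress fibres (chr11:3517523-3540612, minus strand). Its values were 67.9, 72.7 and 19.5 in MSC and 43.1, 47.4 and 25 in TAC. In replicates 1 and 2 MSC was 1.55 times TAC, and in replicate 3 MSC was below TAC. The means were 53.4 ± 29.4 and 38.5 ± 11.9 (SD, n = 3 each), and the log2 difference of -0.30 (SE 0.54) was smaller than its SE. In TAC Smtn made up 61.2%, 66.6% and 66.2% of the reads per exon base of the 10 genes, against 11.2%, 11.8% and 2.25% in MSC. Smtn shares 6.57% of its 75-base windows with Gm11946 on the other strand, a gene at 5.01 and 7.10 in MSC1 and MSC2, 4.0 and 3.35 in TAC1 and TAC2, and listed at 0 in both replicate 3 libraries.

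Des encodes desmin, the intermediate filament of muscle cells, including much of visceral and some vascular smooth muscle (chr1:75360329-75368579, plus strand). It was near the floor of the table, with 12 and 2 estimated reads in MSC1 and MSC2 and 12 and 11 in TAC1 and TAC2, and was listed at 0 in both replicate 3 libraries. No difference was detectable from so few reads. Its antisense neighbour Gm15179, and Gm11947 and Gm22796 within Smtn and Lmod1, were not analysed here. Myocd encodes myocardin (chr11:65176561-65269989, minus strand) and was at 4.29, 6.84 and 0.313 in MSC and 0.635, 0.384 and 0.00758 in TAC, the last resting on 1 estimated read. In replicates 1 and 2 the MSC mean was 10.9 times the TAC mean, but MSC3 fell below TAC1 and TAC2, so the groups overlapped. The log2 difference was -1.53 (SE 0.76).

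The separation between the groups was larger or smaller in replicate 3 than in replicates 1 and 2, depending on the gene. For Acta2 the log2 difference was -4.03 in replicates 1 and 2 and -8.04 in replicate 3, and for Myh11 it was -4.99 and -6.69. The TAC3 values of Acta2 and Myh11 rest on 2 and 10 estimated reads. Tagln (-3.33 and -4.16), Cnn1 (-1.46 and -3.39) and Lmod1 (-2.99 and -3.85) also had larger differences in replicate 3, but Cnn1 and Lmod1 were listed at 0 in TAC3, so their replicate 3 differences rest on the MSC3 value and a listed 0. Mylk (-4.45 and -3.60) and Myocd (-2.10 and -0.38) were closer on this scale, and Smtn went from -0.63 to 0.34. For Myocd both replicate 3 values, 0.313 in MSC3 and 0.00758 in TAC3, were below the 1 added to each value. This shrinks its replicate 3 difference, which is therefore not read as a smaller change. The change between the sets was fitted with limma as an interaction, which sets 1 library per group against an error taken from the close replicates 1 and 2 alone. Of all tested genes 57.2% had an adjusted p under 0.05 in it, and so did 8 of the 9 fitted genes, Lmod1 being the other. The 9 include Cnn1, Actg2 and Myocd, which passed the filter through MSC alone, and Actg2 was listed at 0 in both replicate 3 libraries. Nothing particular to these genes is read from that count.

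**Figure D3:**
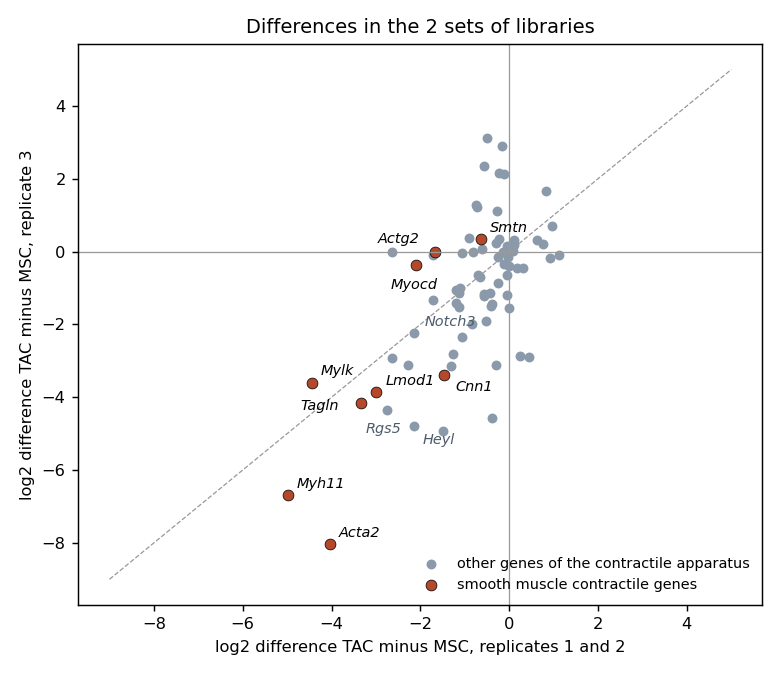
Difference TAC minus MSC on the log2(value + 1) scale in replicates 1 and 2 (x axis) and in replicate 3 (y axis), with 1 point per gene for the 9 fitted smooth muscle contractile genes (red) and 65 other genes of the contractile apparatus (grey); the dashed line marks equal differences. Acta2 (-4.03 and -8.04) and Myh11 (-4.99 and -6.69), with 2 and 10 estimated reads in TAC3, lie furthest from 0 and below the line. Mylk, Smtn, Actg2 and Myocd lie above it, Actg2 and Myocd with replicate 3 values below the 1 added to each value.

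The level in replicate 3 against replicates 1 and 2, with the group as a term, passed the adjusted threshold for 2 of the 9 genes, where 43.5% of all tested genes did. Myh11 was lower in replicate 3 by a log2 difference of -1.79 (SE 0.40, limma adjusted p = 0.0172), a call that was lost with voom on estimated reads, and Smtn by -1.31 (SE 0.24, adjusted p = 0.00937). In MSC alone Acta2, Tagln and Cnn1 were higher in MSC3 than in MSC1 and MSC2, by 1.77, 0.98 and 1.64 on the log2 scale, whereas Myh11 (-0.94), Mylk (-0.92), Smtn (-1.79) and Myocd (-2.29) were lower. Lmod1 was at 0.10, and Actg2, listed at 0 in MSC3, at -1.95. Acta2, Tagln and Cnn1 have 1988 to 2736 exon bases, Lmod1 3948, Smtn 4380, and Myh11, Mylk and Myocd 6424 to 11263. Actg2, whose MSC3 value is a listed 0, has 1557. Over the tested genes with a known exon length the median change to MSC3 was -0.73 for under 1.5 kilobases of exon, -0.17 for 1.5 to 3, -0.27 for 3 to 6 and -0.88 for 6 or more. The part of transcript length in these changes was not tested.

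The other genes of the contractile apparatus were taken from 4 lists of 77 genes in all, of which 72 were listed and 65 tested. Of the 65, 48 were higher in MSC by their log2 difference, with a median of -0.52 where the median of all tested genes was 0.03, and 22 did not overlap with MSC higher and 4 with TAC higher, against 12.2% and 12.3% of all tested genes. Among the 22, Ldb3, Ppp1r14a and Foxs1 reached the mean filter through their MSC values alone. Only Rgs5 and Notch3 passed the adjusted threshold, both higher in MSC (limma), and none passed with TAC higher. At an unadjusted p under 0.05 there were 17 (Ldb3 and Ppp1r14a among them) and 1, against 990 and 834 of all 15391 tested genes. With the replicate number as a block (a paired fit) 5 passed, Rgs5 and Notch3 with Myl9, Tpm2 and Tns1, among 229 genes called over the whole table. The count was 46 of the 64 tested when replicates 1 and 2 alone were fitted, a fit that called 7433 genes over the whole table. It was 0 on leaving out any 1 library other than MSC3, but without MSC1, MSC2, TAC1 or TAC2 no gene of the whole table was called.

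Among the 20 partners of the thin filament and cytoskeleton, 19 had a log2 difference below 0, 11 did not overlap with MSC higher, and none passed the adjusted threshold, with 10 at an unadjusted p under 0.05 (limma). Myl9, the regulatory light chain that the Mylk product phosphorylates, was at 36.9, 39.2 and 119 in MSC and 5.34, 5.27 and 14.7 in TAC, a log2 difference of -2.73 (SE 0.58, adjusted p = 0.129, and 0.0327 with the replicate block). The groups were apart in every library. Ldb3 and Synpo2, both Z-disc or dense-body proteins, had differences of -2.63 and -2.56 (limma adjusted p = 0.344 and 0.176). Ldb3, which reached the mean filter through MSC alone, was at 35.9 in MSC3 but at 1.57 and 4.98 in MSC1 and MSC2, and Synpo2 was listed at 0 in TAC3. The most abundant partners, Flna, Cald1 and Tpm1, which cross-link or coat actin in most cells, had smaller differences of -0.76, -0.67 and -0.79 (adjusted p = 0.513, 0.746 and 0.383).

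Among the 19 tested regulators of contraction, Rgs5, an inhibitor of G protein signalling known from pericytes, was at 276, 268 and 880 in MSC and 40.3, 38.6 and 42.2 in TAC. It was lower in TAC by a log2 difference of -3.29 (SE 0.48, limma adjusted p = 0.0491), a call that was lost in 12 of 16 alternatives. Kcnma1, the pore of the large-conductance potassium channel, and Prkg1, the cGMP-dependent kinase that relaxes smooth muscle, had differences of -1.78 and -1.77 (adjusted p = 0.188 and 0.701), and Prkg1 was listed at 0 in both replicate 3 libraries. Ppp1r12b, a targeting subunit of myosin phosphatase, was higher in every TAC sample, at 327, 332 and 199 against 187, 186 and 61.9, with a difference of 1.10 (SE 0.50, adjusted p = 0.447). Cacna1c, the L-type calcium channel, had a difference of 0.06 (adjusted p = 0.974).

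Among the 12 tested transcription factors and upstream regulators, the level of Srf, which drives contractile genes with myocardin or its relatives, was 22.8, 25.8 and 15.9 in MSC and 24, 22.9 and 17.9 in TAC. Its log2 difference was 0.02 (SE 0.32, limma adjusted p = 0.991). Mkl1 and Mkl2, the myocardin-related coactivators found in most cells, had differences of 0.18 and -1.22 (adjusted p = 0.943 and 0.373), and Tead1 had -0.12 (adjusted p = 0.960). Notch3, the receptor that vascular smooth muscle and pericytes use, was at 110, 124 and 86.8 in MSC and 25.6, 25.5 and 17.5 in TAC, a difference of -2.18 (SE 0.29, adjusted p = 0.0389) whose call was lost in 7 of 16 alternatives. Heyl, a target of Notch3 signalling, was at 24, 24.6 and 47.7 in MSC and 4.55, 4.87 and 0.751 in TAC, a difference of -3.03 (SE 0.60, adjusted p = 0.108). Nfatc1 had -1.78 (adjusted p = 0.465), made up of -0.38 in replicates 1 and 2 and -4.58 in replicate 3.

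The 14 tested paralogs used outside smooth muscle had a median log2 difference of 0.35, none passed the adjusted threshold (limma), and 1 did at an unadjusted p under 0.05. Cnn3, Tmod2 and Vim had the largest differences, at 0.88, 0.86 and -0.77 (adjusted p = 0.254, 0.840 and 0.464). Tmod2 was listed at 0 in MSC3 while at 6.52 in TAC3.

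Markers of cell types that could carry these transcripts moved as follows, and their part in the differences of the 10 genes was not tested. The summed value of the 10 genes was 708 to 861 in MSC and 45.7 to 79.2 in TAC, a ratio of the means of 11.9. The 10 listed pericyte and mural markers summed to 774 to 1405 in MSC and 227 to 254 in TAC, a ratio of 4.05, which was 2.53 without Rgs5, and 2 of the 9 tested passed the adjusted threshold, again Rgs5 and Notch3. Mcam, Cspg4 and Pdgfrb, receptors or adhesion proteins of the mural cell surface, had log2 differences of -1.87, -1.45 and -0.85 (limma adjusted p = 0.231, 0.179 and 0.280), and with the replicate block Mcam and Cspg4 passed (0.0456 and 0.0442). The 12 endothelial markers summed to 364 to 449 in MSC and 140 to 162 in TAC, a ratio of 2.57. None passed the adjusted threshold, and 7 were higher in MSC at an unadjusted p under 0.05 (limma), where 990 of all 15391 tested genes were. Vwf, which endothelial cells secrete, had the largest difference of the 12, at -3.80 (adjusted p = 0.108). Of the 12, 11 had a difference below 0, and Kdr was at 0.00 (SE 0.37), with 0.47 in replicates 1 and 2. With the replicate block Vwf, Sox17 and Cldn5 passed (limma adjusted p = 0.0323, 0.0459 and 0.0491), where 136 of all 15391 tested genes did with MSC higher. In bulk tissue, fewer smooth muscle cells and less RNA of these genes per cell cannot be told apart.

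The 19 listed striated muscle markers summed to 35.1 to 40.3 in MSC and 10 to 21.5 in TAC. All 5 tested markers had a log2 difference below 0, none past the adjusted threshold and 1 at an unadjusted p under 0.05 (limma), and their largest were Tnnt1 at -2.06 and Pygm at -2.04 (adjusted p = 0.446 and 0.263). Tnnt1 and Pygm reached the mean filter through their MSC values alone, and Tnnt1 was at 24.5 in MSC3 against 2.35 and 1.88 in MSC1 and MSC2. The listed markers below the filter had differences on both sides of 0, from -0.29 (Myh3) to 0.55 (Casq1). The dental follicle and periodontal markers summed to 901 to 1856 in MSC and 291 to 345 in TAC, and the single one to pass the adjusted threshold was Igfbp3, a binding protein of insulin-like growth factors, with a log2 difference of -5.07 (limma adjusted p = 0.0151). Igfbp3 carried that gap: the other 9 markers summed to 341, 330.5 and 168 in MSC and 311, 322 and 261 in TAC. The 8 listed dental epithelium markers summed to 3290 to 3351 in MSC1 and MSC2 but to 293 in MSC3, and to 2073 to 3060 in TAC. The odontoblast markers were likewise at 5240 to 5386 in MSC1 and MSC2, 933 in MSC3 and 4606 to 4912 in TAC. The Schwann cell markers summed to 41.1 to 52.9 in MSC and 21.6 to 26.6 in TAC, and the macrophage and blood markers to 106 to 225 and 66.7 to 158. The proliferation genes summed to 118 to 213 in MSC and 351 to 1039 in TAC, and Cdk1, the kinase that starts mitosis, was the one that passed the threshold, with a log2 difference of 2.62 (adjusted p = 0.0390). All 10 were higher in TAC at an unadjusted p under 0.05 (limma), where 834 of all 15391 tested genes were. With the replicate block 3 of the 10 passed, where 93 of all tested genes did with TAC higher.

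**Figure D4:**
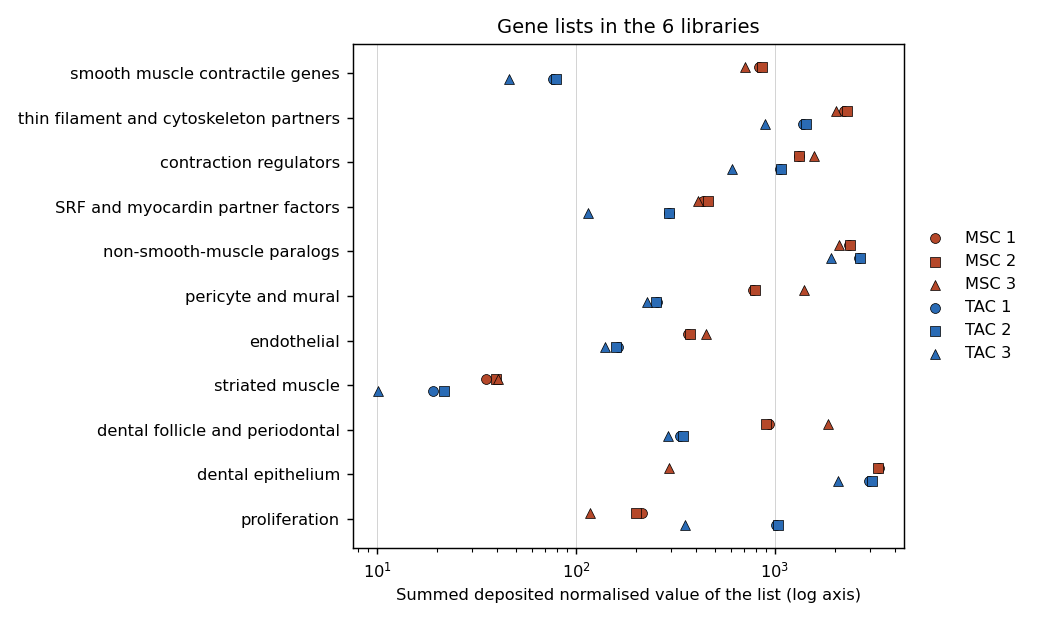
Summed deposited normalised value (log axis) of each gene list, 1 marker per library, MSC in red and TAC in blue. The smooth muscle contractile genes sum to 708 to 861 in MSC and 45.7 to 79.2 in TAC, the pericyte and mural and the endothelial markers are also higher in every MSC library, and the proliferation genes are higher in every TAC library.

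The genes whose profile over the 6 libraries was most like the mean profile of the 9 fitted genes, among 12845 named candidates, were Notch3 (Pearson r = 0.999), Sfrp2 (0.999), Slc6a6 (0.998), Hif3a (0.998) and the pseudogene Olfr1372-ps1 (0.997). These correlations describe 6 libraries in 2 groups, with replicate 3 apart from the others in depth, and carry no test. Sfrp2, a secreted WNT antagonist, was at 703, 691 and 521 in MSC and 39.3, 38.1 and 19.6 in TAC. Hif3a, a hypoxia-inducible factor subunit, was at 48.3, 47.2 and 31.2 in MSC and 2.89, 3.09 and 1.40 in TAC, and Slc6a6, the taurine transporter, at 138, 133 and 105 and at 27.7, 26.2 and 14.9.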

How the data were processed

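RNA was measured in 6 samples, 3 MSC and 3 TAC. Per the submitters' processing notes, CASAVA (version 1.8.2), TopHat2 (version 2.0.8) and Partek were used with build mm10, and the methods describe single-end reads. The authors deposited 1 table of normalised values for all samples, treated here as a signal. The methods name RPKM, but the values of each library are multiples of 1 step and agree in the third quartile, with no division by gene length visible, so reads were estimated as value over step minus 1 (70.4% of estimates under 100 reads were whole within 0.02), and no count test was the main test. No deposited column was unmatched (0). Values were compared on the log2(value + 1) scale with limma (version 3.58.1, R 4.3.3), empirical Bayes with a variance trend, on 15391 genes whose mean over the 6 samples reached 1, two-sided, with Benjamini-Hochberg adjustment over all of them at 0.05. The same code was tested on simulated data. The methods state 3 mice per group, but no label ties a sample to a mouse, so p-values measure the spread between these samples. MSC1 and MSC2, and TAC1 and TAC2, differed by more than counting noise (mean chi-square per gene 10.3 and 8.32). The 10 genes, the lists and the rule for genes named from them (those past the threshold, the 3 largest differences and the 3 highest means of a list, genes overlapping the 10, the 5 most alike profiles, and outside the rule Srf, Mkl1, Actg1, Tagln2, Tpm2, Tns1, Ppp1r14a and Foxs1, added with their values seen) were chosen with earlier results of these data known. From marker lists other than the pericyte list, few genes were named (those past the threshold, and Vwf, Sox17, Cldn5, Kdr, Tnnt1, Pygm, Myh3 and Casq1) and the rest given as sums. Same-numbered samples deviated together (r = 0.477, 0.465 and 0.517 for numbers 1, 2 and 3), but so did MSC1 with TAC2 (0.462) and MSC2 with TAC1 (0.480), so what the numbers share is replicate 3 against the others. The fit with the replicate block (paired) was an alternative. Exon lengths and overlaps came from GENCODE M21, promoters from RefSeq. Proteins were not used here.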

Additional observations from a re-analysis of the deposited data

How the results depend on the processing

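The TAC minus MSC count is 4 of the 9 fitted genes by limma's adjusted p (Acta2, Myh11, Tagln and Mylk), and 6 had an unadjusted p under 0.05, where 990 and 834 of 15391 genes did with MSC and TAC higher. The contrast chose the genes, so these counts are a description and nothing is read from them. In all, 65 genes were called. The count of 4 was 2 with a pseudocount of 0.5 (43 genes in all), 1 with voom on estimated reads (6) and 9 with replicates 1 and 2 only (7433), and between 0 and 4 on leaving out 1 library: 0 without MSC1, MSC2, TAC1 or TAC2 (6 at an unadjusted p in each, and 0 genes called in all), 2 without TAC3 and 4 without MSC3, where Lmod1 replaced Acta2 (280 genes called in all). It was 3 without the variance trend, with Acta2 and Myh11 lost and Lmod1 gained. With the replicate block (paired fit) it was 4 (229 genes in all), with Lmod1, which passed the filter through MSC alone, in place of Acta2. No difference of the 10 genes that had been called changed sign. Smtn ranged from -0.90 to 0.02, the latter without MSC2, and Acta2 from -10.14 (voom) to -4.03 (replicates 1 and 2 only).

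The count of other contractile genes was 2. It was 1 with a pseudocount of 0.5, no filter, a mean of at least 10, median-ratio scaling or quantile normalization, 0 without the variance trend (14 at an unadjusted p) and with voom (17), 5 with the replicate block and 46 with replicates 1 and 2 only, and 0 to 2 on leaving out 1 library (12, 12, 13, 12 and 17 at an unadjusted p without MSC1, MSC2, TAC1, TAC2 and TAC3). The count of 2 for replicate 3 against the others was 4 with voom (7113 genes in all), with Smtn kept and Myh11 lost, and 2 to 8 on leaving out 1 library, with 8 without TAC3 (12474 in all, against 6695). The count of 8 for the difference between sets was 5 with a mean of at least 10, where only 5 of the genes were left to test, 4 with quantile normalization, and 7 on leaving out MSC1, MSC2, TAC1 or TAC2; without MSC3 or TAC3 it could not be fitted. The causes were not tested. Few reads limit Des, Actg2, Cnn1 and Myocd in TAC, with 1 to 28 behind each value above 0, the fewest in TAC3, the deepest library. In TAC3 Acta2 and Myh11 rest on 2 and 10 estimated reads, and Lmod1 was listed at 0. The scalings moved the median of tested genes from 0.03 to between 0.03 and 0.07.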
